A study of Mus musculus with 6 samples.

Results

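Mitochondrial ribosomal protein genes, the nuclear genes whose names start with Mrpl (large subunit) or Mrps (small subunit), were examined in embryonic mouse hearts. A member was any array row that the platform annotation gives exactly 1 gene symbol of this form. Of 72 rows that name such a gene, 3 carry several symbols and were not used, 1 gene was left out by the selection rule, and the brighter of 2 rows was kept for Mrpl48. This left 67 genes, 42 of the large subunit and 25 of the small subunit, among 14860 genes measured. Hearts were dissected at E13.5, in mid-gestation, and 3 arrays were made for each of 2 genotypes, each array holding RNA of a pool of 4 to 6 hearts. Conditional knockout hearts were Mesp1 Cre/+; Hic2 FL/FL, in which Cre recombinase is expressed from Mesp1, a gene active in the early mesoderm from which the heart largely forms, and acts on floxed Hic2, the gene of a zinc finger transcription factor. Control hearts were Hic2 FL/FL with no Cre. Both genotypes therefore carried the floxed alleles, and loss of Hic2 and presence of the Cre allele cannot be told apart.

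The mitochondrial ribosome sits in the organelle's matrix and translates the few proteins that mitochondrial DNA encodes, all of them subunits of the respiratory chain and ATP synthase. Its RNAs come from mitochondrial DNA, while its proteins are encoded in the nucleus, made in the cytosol and imported. Heart muscle depends heavily on mitochondrial energy, and inherited defects of proteins such as human MRPL3 cause cardiomyopathy in infancy.

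The values are log2 signals made with RMA by the authors, a method that brings the arrays to a shared distribution. The median over all rows of an array lay between 7.41 and 7.48, and pairs of arrays had correlations of 0.993 to 0.997 across genes. Precision is limited by having 3 arrays per genotype. Hic2 stood at 8.07, 7.96 and 8.04 in knockout arrays against 8.10, 8.26 and 8.14 in control arrays. That is a difference of -0.14 ± 0.07 (SE) with an adjusted p of 0.314 in limma's moderated test across all genes. Where its probes lie relative to the deleted part is not known here, so this value does not check the genotype labels. Control replicate 3 stood apart in the Y-linked gene Eif2s3y, at 4.36 against 8.51 to 9.64 in the other 5 arrays, and the main counts without it are given below. Of 8 cardiomyocyte markers 4 were measured (Tnnt2, Myl7, Tnni1 and Nkx2-5), and their mean log2 signal was 13.09 ± 0.03 in knockout and 13.20 ± 0.01 in control hearts (SD, n = 3 each). Most of that gap came from Nkx2-5, which differed by -0.37 with groups apart, while Tnnt2 (-0.00), Tnni1 (-0.07) and Myl7 (0.03) had overlapping groups. In such bulk tissue, fewer cells of a type and less RNA per cell cannot be told apart.

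Nearly every mitochondrial ribosomal protein gene had a slightly higher signal in knockout hearts, and none passed the test for a single gene. Of the 67 genes, 65 had a log2 change (knockout minus control) above 0, a share of 97.0% against 51.6% of all 14860 genes, and 2 had one below 0, where 48.4% of all genes did. The median change of the 42 large subunit genes was 0.18, or 1.13-fold, and that of the 25 small subunit genes was 0.20, or 1.15-fold, against 0.00 for all genes. In limma's moderated test with Benjamini-Hochberg adjustment over all genes, 0 of the 67 genes passed an adjusted p under 0.05 in either direction. The smallest adjusted p was 0.129. Across all genes 83 passed, which is 0.559%. At an unadjusted p under 0.05, 32 of the 67 genes (47.8%) were higher in knockout, against a background of 10.7% of all genes, and 1 was lower, against 6.8%. In a refit of only the 7430 genes above the median signal of all genes, 31 of 61 members (50.8%) were higher, against 17.5%. Without control replicate 3, 65 of the 67 genes were above 0, 0 members passed the adjusted threshold and 13 of all genes did.

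**Figure D1:**
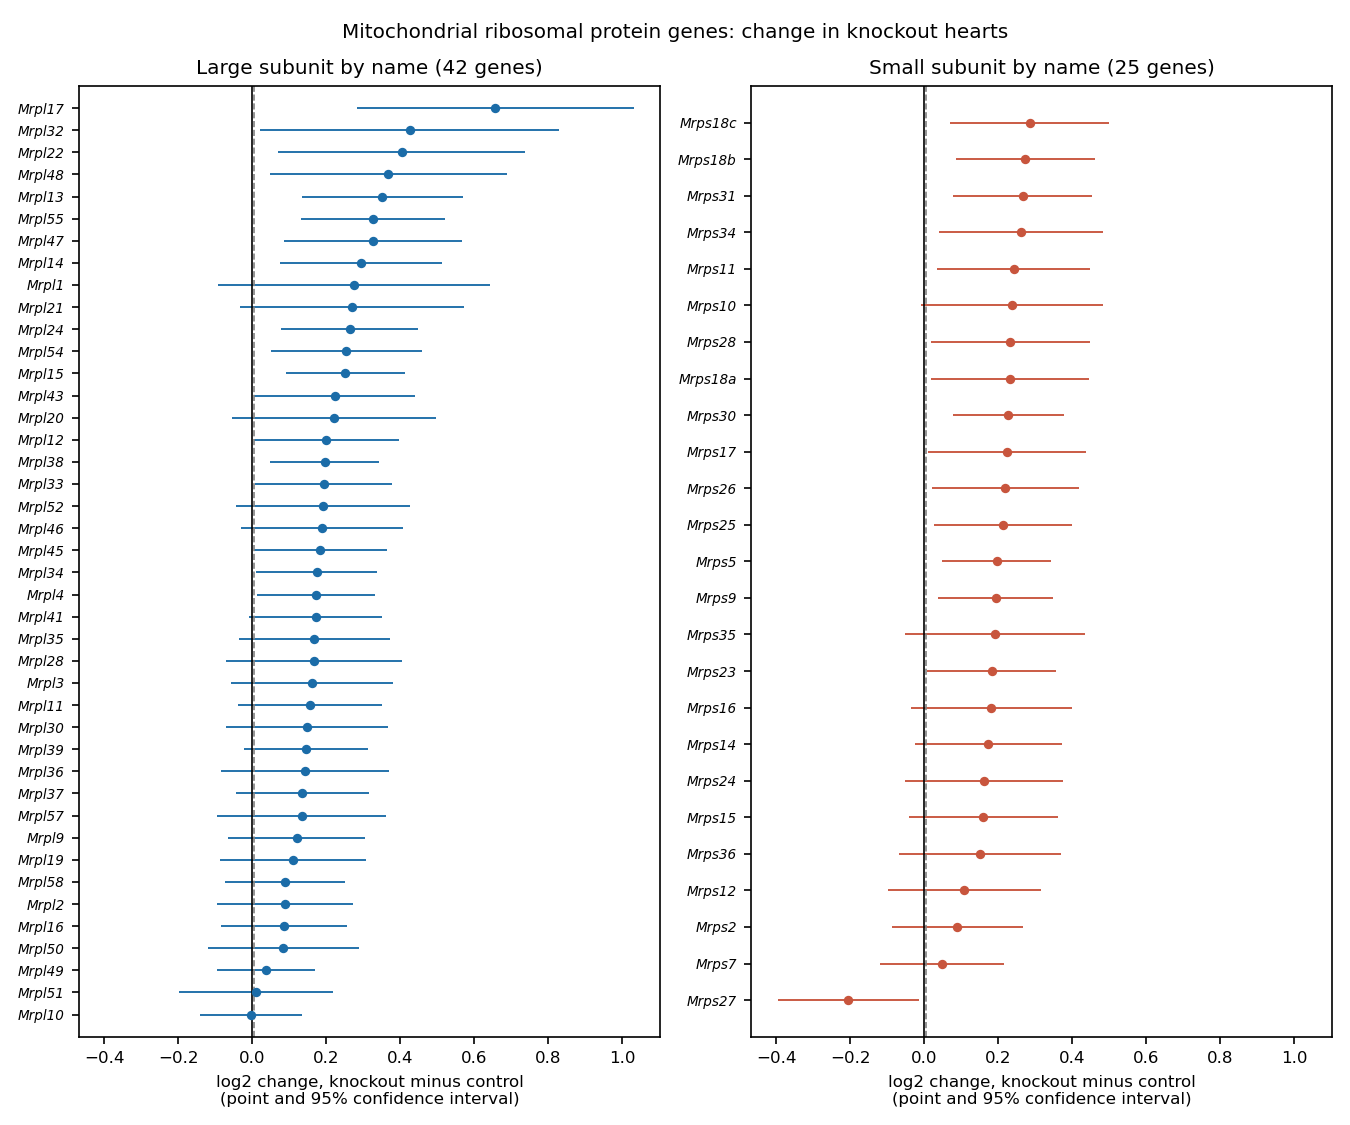
Log2 change of each gene in knockout minus control hearts, as a point with its 95% confidence interval from the limma fit, for the large subunit (left panel) and the small subunit (right panel). The solid line marks 0 and the dashed line the median of all genes; 65 of the 67 points lie right of 0, and the exceptions are Mrpl10 and Mrps27.

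The quartiles of the members' changes lay closer together than those of all genes, which include dim genes. The lower and upper quartiles of the change were 0.14 and 0.26 in the large subunit and 0.16 and 0.23 in the small subunit, against -0.08 and 0.10 over all genes. The full span was -0.00 to 0.66 in the large subunit and -0.21 to 0.28 in the small subunit. The median standard error of a member's change was 0.09, against 0.08 for all genes, and the 95% interval of 34 members included 0. Of the 67 genes, 25 (37.3%) had all 3 knockout arrays above all 3 control arrays, against a background of 14.2%, and 0 had them all below, against 10.4%. With 1 array fewer such separation is easier to reach. It was shown by 53 genes without knockout replicate 1 (background 20.9%), 28 without knockout replicate 2 (18.6%) and 25 without knockout replicate 3 (17.0%). Without control replicates 1, 2 and 3 it was shown by 44 (21.0%), 26 (18.7%) and 32 (18.3%).

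**Figure D2:**
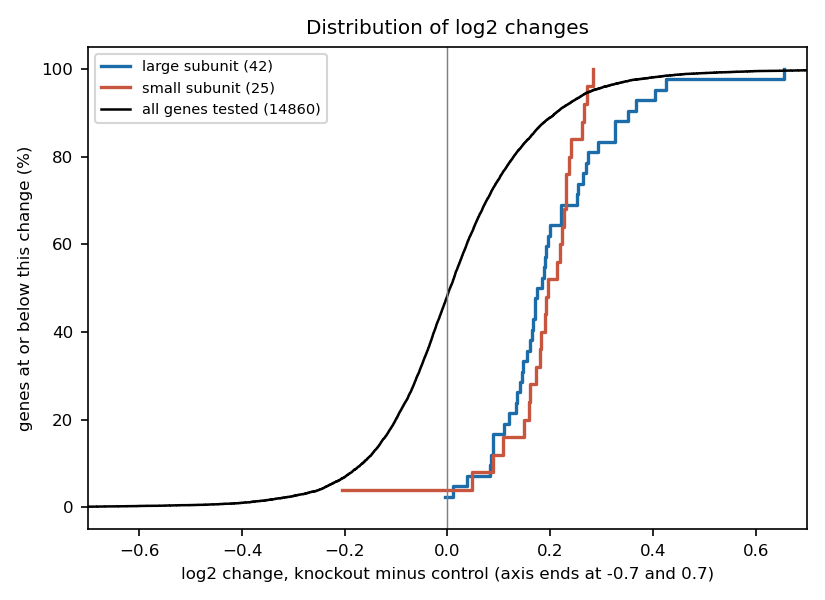
Cumulative share of genes (vertical axis, percent) at or below each log2 change in knockout minus control hearts (horizontal axis), for the large subunit, the small subunit and all 14860 genes. Both subunit curves lie right of the curve of all genes, with medians of 0.18 and 0.20 against 0.00.

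The large and small subunits had nearly the same shift. The mean log2 signal over the 42 large subunit genes was 10.05, 10.13 and 10.29 in knockout replicates 1, 2 and 3, against 10.04, 9.91 and 9.92 in control replicates 1, 2 and 3. Over the 25 small subunit genes it was 9.72, 9.81 and 9.91 in knockout replicates 1, 2 and 3, against 9.68, 9.59 and 9.62 in the control replicates. In both subunits the lowest knockout array, replicate 1, lay only just above the highest control array, replicate 1. The large minus small difference was 0.34 ± 0.03 in knockout and 0.32 ± 0.03 in control hearts (SD, n = 3 each), so the genotypes differed by 0.02 in it, less than the spread between arrays.

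A single knockout array carried the highest value of most members. Knockout replicate 3 was the highest of the 6 arrays for 55 of the 67 genes (82.1%), while it was the highest for 26.6% of all genes. The lowest value was in control replicate 2 for 37 genes and in control replicate 3 for 23, together all but 7 of the 67. Members thus tended to rise and fall together across arrays. Counts of members, here and above, are therefore not counts of separate observations. Without knockout replicate 3 the medians were 0.13 in the large and 0.15 in the small subunit, and 64 of the 67 genes were above 0. The count at an unadjusted p under 0.05 moved more, to 14 higher genes without knockout replicate 3 (20.9% of members, against 6.99% of all genes in the same refit), 14 without knockout replicate 2 (all genes 8.86%) and 14 without control replicate 2 (all genes 8.13%). It was 21 without control replicate 3 (all genes 7.71%), 47 without knockout replicate 1 (all genes 11.3%) and 29 without control replicate 1 (all genes 10.3%).

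**Figure D3:**
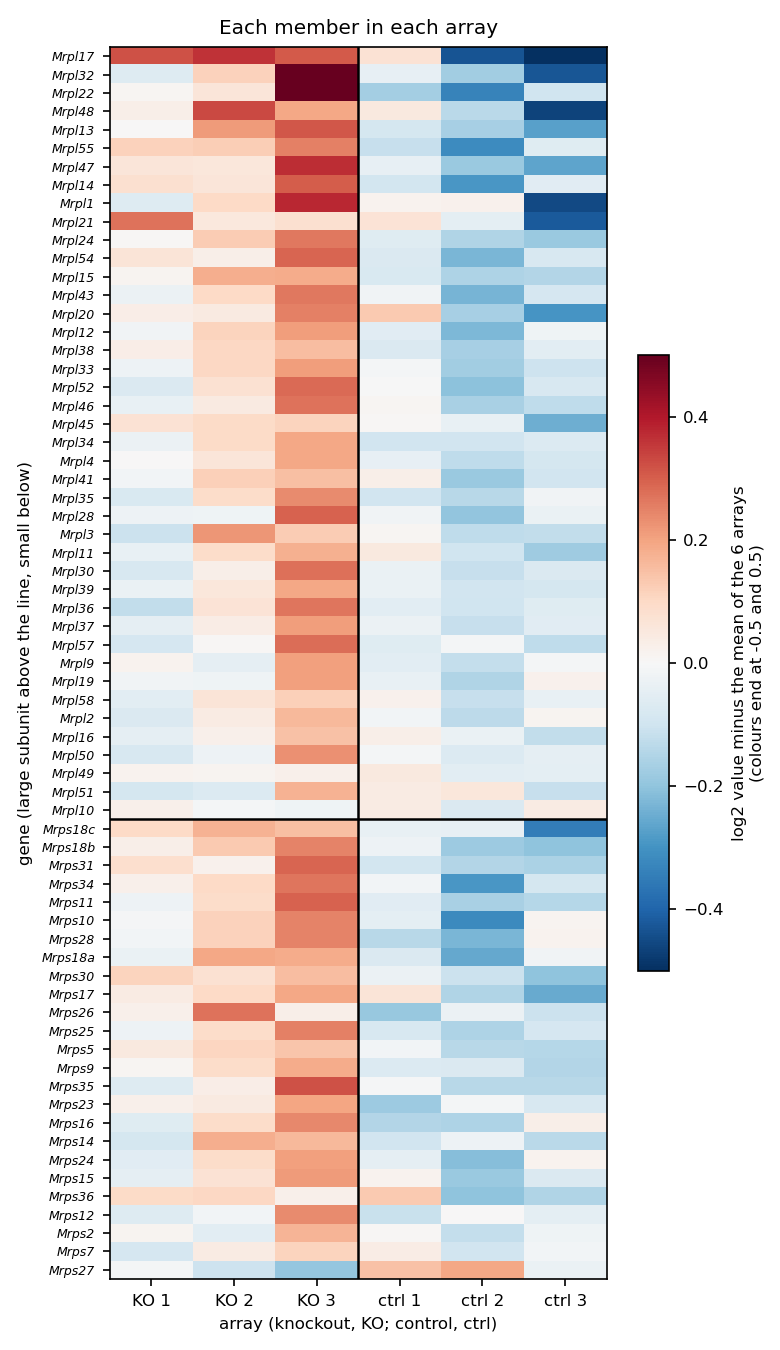
Log2 signal of each of the 67 genes (rows, large subunit above the line) in each array (columns, knockout left of the line and control right), as the difference from that gene's mean over the 6 arrays. Knockout replicate 3 is the darkest red column and holds the highest value of 55 genes, while Mrps27 in the bottom row runs the other way.

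Among large subunit proteins, 6 measured genes for proteins at or near the tunnel through which the new protein leaves had a median change of 0.29, and all were above 0, as were 41 of the 42 large subunit genes. This grouping by role and those that follow were made from background knowledge after the values were seen, and no test was made of them. Mrpl17, the counterpart of a bacterial protein beside the tunnel exit, had 9.38, 9.42 and 9.37 in knockout arrays against 9.13, 8.63 and 8.44 in control arrays. Its 3 knockout values lay close together above widely spread control values. The difference of 0.66 ± 0.16 (SE), or 1.58-fold, had a limma adjusted p of 0.129. Without control replicate 1 it was 0.86 with a limma adjusted p of 0.0378, and the span over all arrays left out in turn was 0.51 to 0.86.

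Mrpl24, a tunnel exit protein, had 9.71, 9.82 and 9.96 in knockout arrays against 9.64, 9.55 and 9.51 in control arrays, a difference of 0.26 ± 0.08 (SE, limma adjusted p = 0.173). Mrpl47, the counterpart of another bacterial tunnel exit protein, had 11.10, 11.10 and 11.41 in knockout arrays against 10.999, 10.86 and 10.78 in control arrays, a difference of 0.33 ± 0.10 (SE, limma adjusted p = 0.185). Neither gene's groups overlapped, and in both the highest value was in knockout replicate 3. Further tunnel proteins were singled out after their values were seen. Mrpl22 and Mrpl4, which line the tunnel, differed by 0.40 ± 0.14 and 0.17 ± 0.07, and Mrpl45, which holds the ribosome to the inner membrane, differed by 0.18 ± 0.08 (SE).

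The central protuberance, the crown of the large subunit, gave 5 changes above 0 with a median of 0.19. Mrpl55, its counterpart of a bacterial protein that bridges the subunits, had 9.52, 9.53 and 9.66 in knockout arrays against 9.29, 9.09 and 9.35 in control arrays. The groups did not overlap, and the difference was 0.33 ± 0.08 (SE, limma adjusted p = 0.136). The mitochondria-specific proteins of this region, named here after their values were seen, differed by 0.19 (Mrpl38), 0.19 (Mrpl46) and 0.37 (Mrpl48). Mrpl58, which also releases peptides from stalled ribosomes, differed by 0.09 ± 0.07 (SE).

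In the stalk, the arm that recruits translation factors, 2 of 3 members were above 0. Mrpl10, which anchors the stalk, had 11.23, 11.20 and 11.19 in knockout arrays against 11.25, 11.14 and 11.25 in control arrays. The groups overlapped throughout, and the difference was -0.00 ± 0.06 (SE, limma adjusted p = 0.979) with a 95% confidence interval of -0.14 to 0.13. Its sign turned in 3 of the 6 refits with an array left out. Mrpl12, whose copies Mrpl10 carries, had 11.21, 11.34 and 11.44 in knockout arrays against 11.17, 11.01 and 11.21 in control arrays, a difference of 0.20 ± 0.08 (SE, limma adjusted p = 0.276). Its lowest knockout value and its highest control value were nearly equal. The stalk base protein Mrpl11 differed by 0.16 ± 0.08 (SE), and both were singled out after their values were seen.

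Proteins of the large subunit's core completed the leading genes. Mrpl13, an RNA-binding protein with a bacterial counterpart, had 10.29, 10.50 and 10.60 in knockout arrays against 10.20, 10.12 and 10.02 in control arrays. The difference was 0.35 ± 0.09 (SE, limma adjusted p = 0.146). Mrpl15, another such core protein, had 11.07, 11.23 and 11.24 in knockout arrays against 10.98, 10.90 and 10.91 in control arrays, a difference of 0.25 ± 0.07 (SE, limma adjusted p = 0.150). In both genes every knockout array lay above every control array, and knockout replicate 1 was the closest to the controls.

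Small subunit genes had a narrower spread, and 11 of the 25 had groups that did not overlap, all higher in knockout, against a background of 14.2% of all genes higher and 10.4% lower. The proteins of the decoding site and of the path that the messenger RNA takes gave 6 changes above 0, with a median of 0.18. Mrps5, at the messenger RNA entry, had 10.65, 10.71 and 10.74 in knockout arrays against 10.59, 10.46 and 10.46 in control arrays, a difference of 0.20 ± 0.06 (SE, limma adjusted p = 0.189). Mrps9, whose tail reaches the site of the peptide-bearing tRNA, had 8.96, 9.04 and 9.13 in knockout arrays against 8.88, 8.87 and 8.80 in control arrays, a difference of 0.19 ± 0.07 (SE, limma adjusted p = 0.207). Neither pair of groups overlapped. Mrps12, the counterpart of the bacterial protein at the decoding centre, was singled out after its values were seen and differed by 0.11 ± 0.09 (SE).

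The Mrps18 paralogues, which are related copies used at different places of the ribosome, had similar changes. Mrps18c, the counterpart of the bacterial protein, had 10.50, 10.58 and 10.55 in knockout arrays against 10.36, 10.36 and 10.06 in control arrays, a difference of 0.28 ± 0.09 (SE, limma adjusted p = 0.191). Mrps18b, which takes a mitochondria-specific place in the small subunit, had 10.37, 10.47 and 10.58 in knockout arrays against 10.31, 10.15 and 10.13 in control arrays, a difference of 0.27 ± 0.08 (SE, limma adjusted p = 0.170). Groups did not overlap in either. Mrps18a had 10.19, 10.42 and 10.41 in knockout arrays against 10.15, 9.97 and 10.21 in control arrays, a difference of 0.23 ± 0.09 (SE, limma adjusted p = 0.255) with overlapping groups.

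Names and places in the ribosome do not always match. In structures of the mammalian ribosome, the products of Mrps18a and Mrps30 lie in the large subunit, and Mrps36 belongs to a different mitochondrial enzyme complex. Mrps30 had 10.36, 10.33 and 10.41 in knockout arrays against 10.22, 10.15 and 10.06 in control arrays, a difference of 0.23 ± 0.06 (SE, limma adjusted p = 0.159). Mrps36 had 9.14, 9.15 and 9.07 in knockout arrays against 9.17, 8.84 and 8.89 in control arrays, a difference of 0.15 ± 0.09 (SE, limma adjusted p = 0.447). Groups were apart for Mrps30 and overlapped for Mrps36. With the genes placed as in structures, the medians were 0.19 over 44 large subunit genes and 0.19 over 22 small subunit genes. With the same placing, among proteins with a bacterial counterpart the median was 0.19 in both subunits (27 large, 14 small). Among proteins classed as mitochondria-specific it was 0.18 in the large subunit (17 genes) and 0.22 in the small subunit (8 genes). That class holds Mrps18a and Mrps18b, although they are related to Mrps18c.

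Mrps27 was the member farthest below 0. This pentatricopeptide repeat protein of the small subunit had 9.85, 9.76 and 9.67 in knockout arrays against 10.01, 10.06 and 9.83 in control arrays. Knockout replicate 1 lay above control replicate 3, so the groups overlapped. The difference was -0.21 ± 0.08 (SE), with a 95% confidence interval of -0.40 to -0.01 and a limma adjusted p of 0.254. It stayed between -0.27 and -0.16 when each array was left out. Another mitochondria-specific protein of the small subunit, Mrps31, had 9.82, 9.76 and 10.03 in knockout arrays against 9.64, 9.59 and 9.58 in control arrays, a difference of 0.27 ± 0.08 (SE, limma adjusted p = 0.174). Mrps31's groups did not overlap.

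The promoters of these genes were searched for short motifs of factors known to act on nuclear genes of mitochondria. The windows came from RefSeq (build GRCm38.p6), 250 bases before to 50 after each gene's start, and 58 of the 67 genes had 1. The motifs, read on both strands, were GCGCATG for NRF1, CCGGAAG for ETS factors such as GABPA, and AAGATGG for YY1, and AAGATGG starts with the letters on which CCGGAAG ends, so these can overlap. CCGGAAG was found in 20 of the 58 genes (34.5%), against 14.4% of 11869 genes tested with a window and 9.93% of all 27025 genes in the table. AAGATGG was found in 12 genes (20.7%), against 7.62% and 7.28%. GCGCATG was found in 8 genes (13.8%), against 6.13% and 4.41%. Members with CCGGAAG had a median change of 0.19 and those without it 0.17. The medians with and without AAGATGG were 0.15 and 0.19, those with and without GCGCATG were 0.23 and 0.18, and those with and without any of the 3 motifs were 0.17 and 0.19. The 250 bases before the start are shown for Mrpl17, which had the largest difference of the 67 genes, Mrps18b, which holds the same NRF1 letters, and the exceptions Mrpl10 and Mrps27, with the motif letters in capitals. They lie at chr7:105811088-105811337, minus strand, at chr17:35916441-35916690, minus strand, at chr11:97041332-97041581, plus strand and at chr13:99344536-99344785, plus strand.
Mrpl17: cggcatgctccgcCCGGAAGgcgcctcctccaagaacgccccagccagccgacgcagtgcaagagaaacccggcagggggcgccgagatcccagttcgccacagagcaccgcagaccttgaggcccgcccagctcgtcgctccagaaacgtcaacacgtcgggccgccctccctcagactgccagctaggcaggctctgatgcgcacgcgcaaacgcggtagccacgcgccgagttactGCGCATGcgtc
Mrps18b: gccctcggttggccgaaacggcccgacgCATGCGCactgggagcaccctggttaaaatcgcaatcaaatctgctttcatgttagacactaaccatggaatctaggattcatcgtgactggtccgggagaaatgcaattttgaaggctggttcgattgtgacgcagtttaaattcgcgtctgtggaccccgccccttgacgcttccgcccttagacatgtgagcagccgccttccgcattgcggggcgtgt
Mrpl10: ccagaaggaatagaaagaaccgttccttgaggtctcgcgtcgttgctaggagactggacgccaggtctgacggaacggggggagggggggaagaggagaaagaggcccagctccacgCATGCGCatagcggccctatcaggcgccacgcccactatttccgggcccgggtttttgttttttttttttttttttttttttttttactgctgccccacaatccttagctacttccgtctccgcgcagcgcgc
Mrps27: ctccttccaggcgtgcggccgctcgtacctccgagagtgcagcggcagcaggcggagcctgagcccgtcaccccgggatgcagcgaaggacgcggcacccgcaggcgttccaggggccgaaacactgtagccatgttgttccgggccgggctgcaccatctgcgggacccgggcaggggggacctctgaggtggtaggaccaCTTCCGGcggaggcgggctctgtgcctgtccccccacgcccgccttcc
GCGCATG or its complement thus stood before Mrpl17 (0.66), Mrps18b (0.27) and Mrpl10 (-0.00), the log2 changes being given in parentheses. CCGGAAG or its complement stood before Mrpl17 (0.66) and Mrps27 (-0.21). The counts above also used the 50 bases after the start, which are not shown. With those bases included, Mrps18b also held CCGGAAG and Mrps27 also held AAGATGG, on either strand. A match of letters is a description of the sequence, not evidence of binding.

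Among other genes of mitochondrial translation, the translation factors and the assembly and maturation factors were less uniform. Ribosomal proteins with other names gave 3 of 3 changes above 0, with a median of 0.16: Chchd1 differed by 0.29 ± 0.10 (SE), Gadd45gip1 by 0.16 ± 0.08 and Ptcd3 by 0.14 ± 0.08. Translation factors, among them the elongation factor partner Tsfm (0.19 ± 0.06) and the release factor Mtrf1 (0.28 ± 0.07), gave 14 of 16 above 0 with a median of 0.10. Mtres1 (0.26) and the RNA-binding protein Slirp (0.22) were the others with the smallest p. Assembly and maturation factors gave 15 of 24 above 0 with a median of 0.06. They included the methyltransferase Mettl15 at 0.38 ± 0.08 (limma adjusted p = 0.102), Mtg1 at 0.33, Ngrn at 0.24 and the methyltransferase Mrm1 at -0.26 ± 0.08. In these 3 groups 0 genes passed limma's adjusted threshold in either direction. At an unadjusted p under 0.05 there were 1, 4 and 4 higher genes and 0, 0 and 1 lower genes, in the order given. At that unadjusted p, 10.7% of all genes were higher and 6.8% lower.

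The enzymes that charge mitochondrial tRNAs had no common direction. Of 20 measured aminoacyl-tRNA synthetase genes and partners, 7 were above 0 and 13 below, with a median of -0.01. In the limma fit 0 passed the adjusted threshold. At an unadjusted p under 0.05, 1 was higher and 2 were lower, against 10.7% and 6.8% of all genes. Mars2, for methionine, differed by -0.46 ± 0.12 (SE, limma adjusted p = 0.145), and Ears2, for glutamate, by -0.21 ± 0.07. Gatc, a subunit of the enzyme that makes glutamine-bearing tRNA, differed by 0.22 ± 0.08, and Fars2, for phenylalanine, by 0.10 ± 0.06. Their mean log2 signal was 9.52, 9.47 and 9.42 in knockout arrays against 9.51, 9.57 and 9.45 in control arrays. Here knockout replicate 3 was the lowest array, and the groups overlapped.

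Genes of mitochondrial DNA transcription and upkeep gave 9 of 12 above 0, with a median of 0.09. The transcription elongation factor Tefm differed by 0.26 ± 0.09 (SE), the nuclease Mgme1 by 0.20 ± 0.07, the kinase Dguok by 0.19 ± 0.08 and the topoisomerase Top1mt by 0.18 ± 0.07. Nuclear regulators of mitochondrial genes gave 7 of 10 above 0, with a median of 0.05. The coactivator Ppargc1b differed by 0.19 ± 0.07 and the GABP subunits by 0.12 ± 0.06 (Gabpb1) and -0.15 ± 0.06 (Gabpb2). Myc differed by 0.08 ± 0.06. The factors named with the promoter motifs differed by 0.06 ± 0.06 (Nrf1), 0.03 ± 0.06 (Gabpa) and -0.02 ± 0.06 (Yy1), each with overlapping arrays. Both gene lists had 0 genes past limma's adjusted threshold. At an unadjusted p under 0.05 the first had 4 higher genes and the second 1 higher and 1 lower. The shares of all genes were 10.7% higher and 6.8% lower.

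Subunits of other complexes had shifts of similar size, so the change was not shown to be particular to the mitochondrial ribosome. These 4 lists were taken by symbol after the data were seen. NADH dehydrogenase subunits were above 0 in 27 of 27 genes with a median of 0.16, and cytochrome c oxidase subunits in 10 of 10 with a median of 0.20. Proteasome subunits were above 0 in 28 of 34 with a median of 0.13, and cytosolic ribosomal proteins, whose probes can catch near-identical copies, in 13 of 18 with a median of 0.16. Among the 4 lists 1 gene passed the adjusted threshold, the cytosolic ribosomal protein gene Rpl4, higher by 1.13. Of all genes, 0.336% were higher past that threshold. Proteasome genes averaged 10.33, 10.40 and 10.49 in knockout arrays against 10.38, 10.30 and 10.28 in control arrays. In proteasome genes the groups overlapped. In the other 3 lists the array means did not: the lowest knockout and highest control values were 10.47 and 10.31 for cytochrome c oxidase, 8.62 and 8.58 for cytosolic ribosomal proteins, and 11.17 and 11.15 for NADH dehydrogenase. Knockout replicate 3 was the highest array in all 4 lists.

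**Figure D4:**
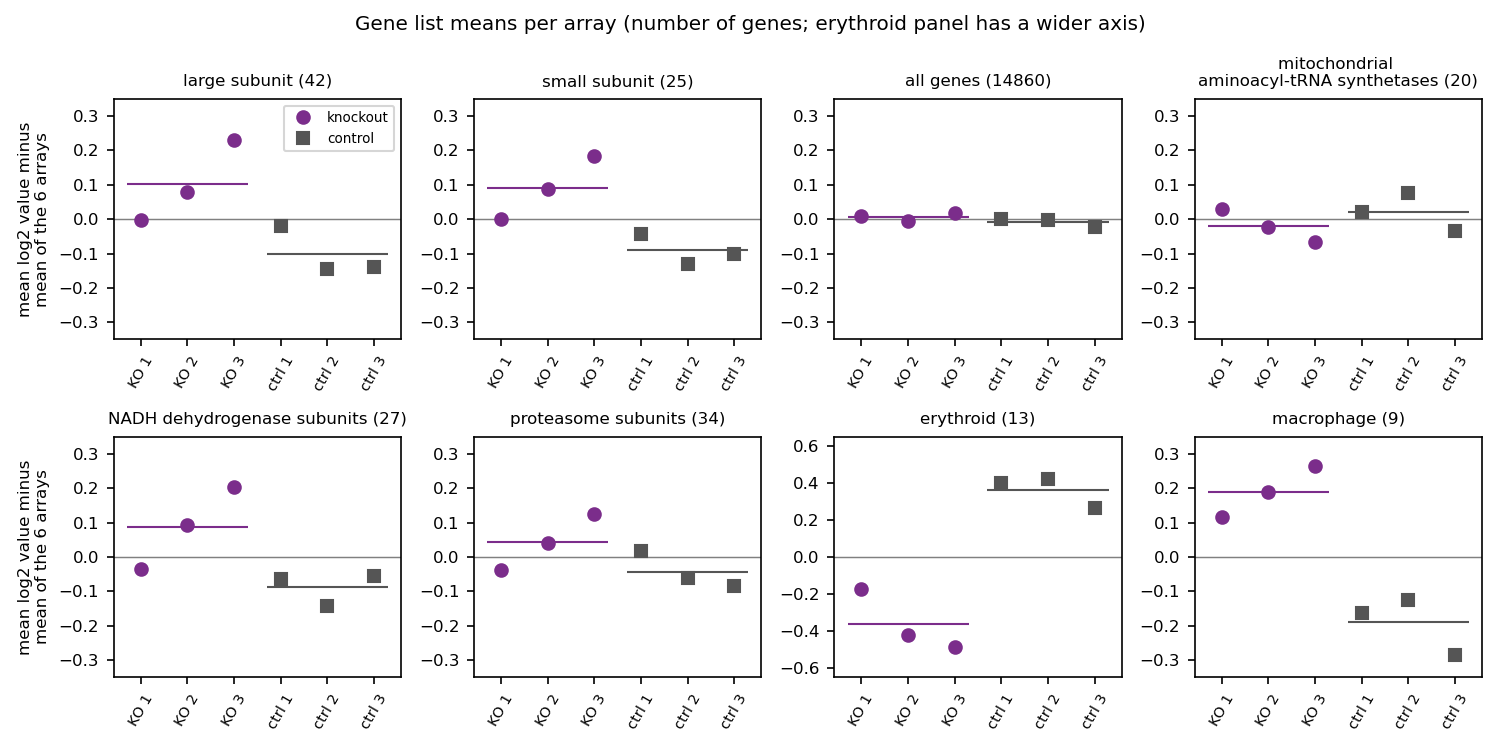
Mean log2 signal of 8 gene lists in each array, as the difference from the mean of the 6 arrays, with knockout arrays as circles on the left, control arrays as squares on the right and each group's mean as a line. Knockout replicate 3 is highest in both subunits, in NADH dehydrogenase and in proteasome subunits, and lowest in aminoacyl-tRNA synthetases; the erythroid panel has a wider axis.

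Markers of other cells differed between the same arrays. The mean over 13 of 14 erythroid markers was 9.28, 9.03 and 8.97 in knockout arrays against 9.85, 9.87 and 9.72 in control arrays, with 13 of 13 below 0, a median of -0.90 and 6 genes lower past the adjusted threshold. The mean over 9 macrophage markers was 8.75, 8.82 and 8.89 in knockout arrays against 8.46, 8.50 and 8.34 in control arrays, with 9 of 9 above 0 and 2 past the threshold. Over 7 epicardial markers the mean ranged from 10.26 to 10.41 in knockout and from 9.89 to 10.05 in control arrays, with 6 of 7 above 0 and 3 past the threshold, all higher. Of all genes, 0.336% were higher and 0.222% lower past the adjusted threshold. The epicardial transcription factor Tbx18 differed by -0.24 ± 0.08 (SE, limma adjusted p = 0.197), with groups apart. Over 8 endothelial markers the mean ranged from 10.98 to 11.03 in knockout and from 10.84 to 10.86 in control arrays. Of these markers 7 of 8 were above 0, and 0 passed limma's threshold. At an unadjusted p under 0.05, 4 were higher, against 10.7% of all genes. Markers of proliferating cells were mixed, with 4 of 9 above 0 and a median of -0.00. The part of these cell types in the higher mitochondrial ribosomal protein signal was not tested.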

How the data were processed

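Total RNA of pooled E13.5 hearts was extracted, amplified and labelled for Affymetrix arrays, per the labels' protocols. Per the submitters' processing notes, RMA in Affymetrix Expression Console made the deposited values, which are log2 signals. The sources used here do not give its version or the genome build. RMA equalises total signal between arrays, which hides a shift common to most genes.

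Of the rows deposited, 14996 carried 1 symbol, and the brightest row was kept for each of 14860 genes. Genes were compared as knockout minus control with limma 3.58.1 (lmFit, eBayes) in R 4.3.3, two-sided, with Benjamini-Hochberg adjustment over all genes and no filter on dim signals. Of the members, 61 had a mean above the median of all genes. Replicates are labelled biological, and p-values measure the spread between pools.

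The members and lists were chosen with earlier results of these data known. Named members were, in each subunit, up to 6 per direction with the smallest unadjusted p, the Mrps18 paralogues, Mrps30 and Mrps36. In further lists the 4 genes with the smallest p were named, and Nrf1, Gabpa and Yy1 besides.

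The labels give both genotypes replicate numbers 1 to 3 without saying what a number shares. Deviations from the genotype means correlated at -0.04, 0.02 and 0.13 for numbers 1, 2 and 3. Unlike numbers correlated at -0.23 to 0.22. So few values cannot show whether a number marks a pair. The labels name no pairs, so the numbers were not taken as pairs in the main fit.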

Additional observations from a re-analysis of the deposited data

How the results depend on the processing

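The alternatives were a replicate block, array weights, trend with robust moderation, quantile normalisation, median centring, brighter genes only, every row tested, the mean of a gene's rows, subunits as placed in structures, and each array left out. Under all of these, both subunit medians stayed above 0. The replicate block, trend with robust moderation and every row tested leave each gene's change as it is, so they could not move the medians. With arrays left out the medians ran from 0.13 to 0.24 in the large and from 0.15 to 0.26 in the small subunit. Between 64 and 66 of the 67 members were above 0 with arrays left out, and 64 after centring, quantile normalisation or array weights.

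Calls among members depended on the setting. The array weights were 4.19 for knockout replicate 2 against 0.589 and 0.556 for knockout replicates 1 and 3. Control replicates 1, 2 and 3 had 1.78, 0.713 and 0.574. The knockout side of that fit thus rested mostly on knockout replicate 2. With array weights 733 of all 14860 genes passed the adjusted threshold. Among them were 3 of 42 large and 1 of 25 small subunit genes (Mrpl13, Mrpl15, Mrpl55 and Mrps26). With brighter genes only 443 of 7430 genes passed. Among them were 3 of 38 large and 0 of 23 small subunit genes (Mrpl13, Mrpl17 and Mrpl55). In both settings the share of members that passed was close to that of all genes. Arrays left out gave 0 to 1 large subunit genes. Over all genes the count of 83 became 38 with the replicate block and 203 with trend and robust moderation. It became 0 with every row tested and 3 to 28 with arrays left out. With every row tested 19 members (28.4%) were higher at an unadjusted p under 0.05, against 7.38% of all rows. With the replicate block 0 members were called and 28 were higher at an unadjusted p under 0.05, against 32 without it. Those 28 were 41.8% of members, where 9.47% of all genes were higher. The count of higher members was 19 (28.4%) after quantile normalisation, against 9.36% of all genes. After median centring it was 22 (32.8%), against 8.64%. With arrays left out it was 14 to 47, with the shares of all genes given above. The value of Mrpl10 lay between -0.042 and 0.0145 with arrays left out, and was above 0 without control replicate 1 (0.0145), control replicate 3 (0.0142) and knockout replicate 3 (0.0058). The causes were not tested. Low signals cannot be separated from background here.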
